A study of Mus musculus with 4 samples.

Results

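The 7 genes described here, Dnmt3l, Tdrd9, Tex15, Morc1, Tex101, Tex19.1 and Sohlh2, are expressed in the male germ line, and most of them act in the silencing of transposons. They were taken by gene name from the authors' 6 deposited tables, which compare 4 libraries in pairs and list between them 382 transcripts, 240 of them with a gene name. Each gene was represented by 1 transcript. The genes were chosen by the values in these same tables, because the tables list them, so their differences between libraries are a description and carry no test.

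RNA came from gonads of wildtype CD1 mouse embryos at stage E13.5, dissected away from the mesonephros. Each of 4 groups had 1 library: Control (treatment labelled as none), ACE+ACE (acetaminophen), ASP+ACE (aspirin with acetaminophen) and IBU+ACE (ibuprofen with acetaminophen). All groups share the strain, genotype and stage. The control library is called EtOH inside the tables, and the sources used here give no dose, no day of exposure and no number of embryos per library. The question was what these painkillers, given during pregnancy, do to the testis as it forms. With 1 library per group no difference has a replicate check. Values are the authors' deposited levels, read as FPKM, fragments per kilobase of transcript and scaled to the mapped fragments. The depth behind them is unknown.

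At this stage male germ cells leave the pluripotent state, stop dividing and become prospermatogonia. Their genome has lost most of its DNA methylation, and transposons must be silenced again. Small piRNAs bound to PIWI proteins guide this, with Tudor-domain proteins as scaffolds and helicases. The de novo DNA methyltransferases and their cofactor Dnmt3l then methylate transposons and imprinted regions. Genes of this programme come on while pluripotency genes such as Sox2 and Lefty1 go down.

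On the values as deposited, 5 of the 7 genes were listed as higher in IBU+ACE (Dnmt3l, Tdrd9, Tex15, Morc1 and Tex101) and 2 as lower (Sohlh2 and Tex19.1), but after division by the median ratio of 92 named transcripts Tdrd9, Tex15, Morc1 and Tex101 had log2 values below 0. That median stood 2.66 times higher in IBU+ACE than in Control, a log2 shift of 1.41. It is taken over transcripts that the tables list as differing between libraries. A higher row with a log2 fold change below the shift had to turn, and one above it could not. Dnmt3l was above it, and its log2 values on that scale were 0.42 against Control and 1.16 against ACE+ACE. These outcomes follow from the divisor and the deposited values, so they carry no test. Every one of the 11 rows that name these genes involves the IBU+ACE library. The 3 tables that leave IBU+ACE out list 0 of the 7, where they list 25.1% of the 382 transcripts, 17.5% between Control and ACE+ACE, 11.5% between Control and ASP+ACE and 6.28% between ACE+ACE and ASP+ACE.

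Against Control, 5 of the 7 genes were listed, 4 higher and 1 lower, where the table lists 48.4% of the 382 transcripts, 39.5% as higher and 8.90% as lower. Against ACE+ACE there were again 5, 4 higher and 1 lower, where the table lists 60.7%, 54.2% as higher and 6.54% as lower. Against ASP+ACE only 1 of the 7, Tex19.1, was listed, as lower, where the table lists 45.5%, 41.9% as higher and 3.66% as lower. Membership rests on these same tables, so nothing is read from the shares. The 3 comparisons share the IBU+ACE library. A gene missing from a table had no call, which does not show equal levels. As a result 18 of the 28 possible values could be read, and for ASP+ACE only that of Tex19.1.

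**Figure D1:**
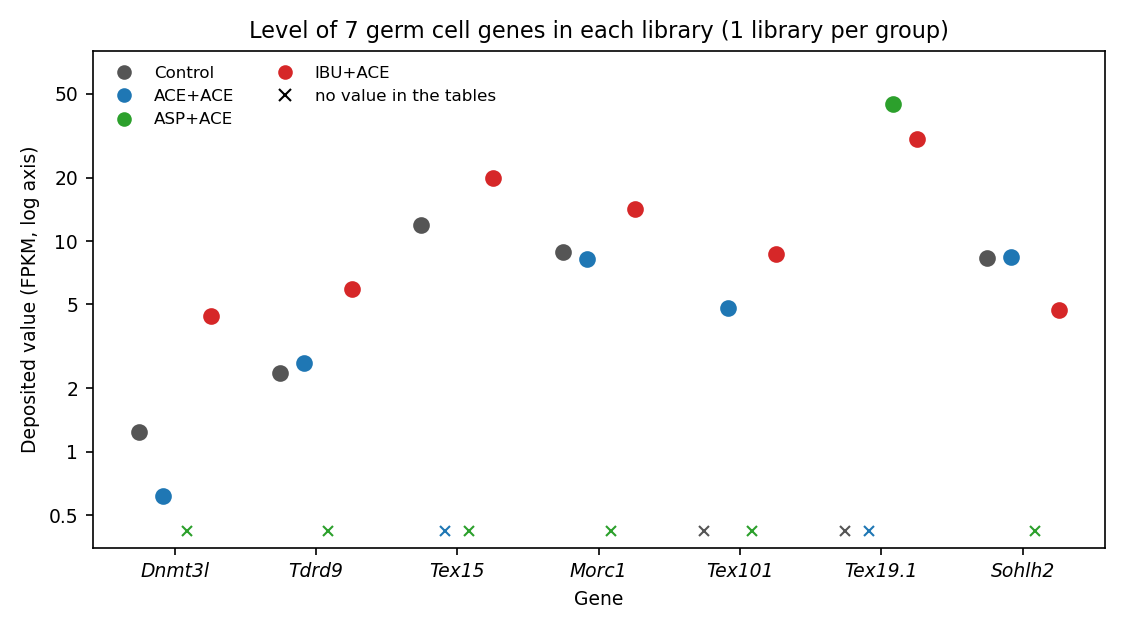
Deposited value (FPKM, log axis) of each of the 7 genes in Control (grey), ACE+ACE (blue), ASP+ACE (green) and IBU+ACE (red), 1 library per group, with a cross at the base where the tables give no value. Dnmt3l, Tdrd9, Tex15, Morc1 and Tex101 have their highest readable value in IBU+ACE, while Tex19.1 and Sohlh2 have their lowest there, all before the scaling that turns the log2 values of Tdrd9, Tex15, Morc1 and Tex101.

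The promoters of the genes with the highest and the lowest log2 fold changes are shown first, to let their CpG content and E-boxes be compared. RefSeq promoter windows on GRCm38.p6, from 250 bases before to 50 after a transcript start, matched 5 of the 7 genes, with 3 windows for Dnmt3l. The stretches printed are the parts before the start that hold no annotated exon base of the gene, ending for Tdrd9 before the deposited locus, read 5′ to 3′ on the gene's strand. Capitals mark CpG pairs, the sites of DNA methylation, and the E-box palindrome CACGTG, which is bound by basic helix-loop-helix proteins. The Dnmt3l stretch is the one before the middle start, chosen after its E-box was seen.
Dnmt3l (chr10:78049592-78049841, plus strand): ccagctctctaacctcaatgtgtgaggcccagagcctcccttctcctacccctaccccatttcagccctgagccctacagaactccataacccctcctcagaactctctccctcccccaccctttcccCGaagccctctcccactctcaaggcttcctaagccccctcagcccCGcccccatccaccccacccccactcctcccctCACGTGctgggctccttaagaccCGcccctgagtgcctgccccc
Tdrd9 (chr12:111971309-111971483, plus strand): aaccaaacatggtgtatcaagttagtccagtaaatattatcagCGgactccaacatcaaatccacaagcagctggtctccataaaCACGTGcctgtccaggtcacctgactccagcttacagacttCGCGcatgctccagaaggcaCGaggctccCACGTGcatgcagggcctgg
Tex19.1 (chr11:121145893-121146142, plus strand): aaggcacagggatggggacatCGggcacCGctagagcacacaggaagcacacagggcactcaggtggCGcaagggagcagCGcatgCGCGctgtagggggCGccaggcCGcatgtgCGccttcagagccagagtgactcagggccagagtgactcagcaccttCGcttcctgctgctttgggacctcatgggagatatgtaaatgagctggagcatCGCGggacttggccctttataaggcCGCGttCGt
Sohlh2 (chr3:55181794-55182027, plus strand): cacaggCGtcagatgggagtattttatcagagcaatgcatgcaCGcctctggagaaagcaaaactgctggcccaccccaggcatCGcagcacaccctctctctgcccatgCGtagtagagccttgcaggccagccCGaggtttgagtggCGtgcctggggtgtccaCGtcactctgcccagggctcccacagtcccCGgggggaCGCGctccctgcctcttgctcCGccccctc

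The E-box CACGTG was present in the windows of Tdrd9, at 165 and 95 bases before the start, and of Dnmt3l, at 44 bases before the middle start. It reads the same on both strands. Of all 32851 RefSeq windows of 300 bases, 7.15% held it and 0.594% held 2 or more. The windows of Tex101, Tex19.1 and Sohlh2 and the other Dnmt3l windows held none. The E2F-type letters TTCCCGC, which do not overlap the E-box, were in 0 of the 7 windows on either strand, against 4.60% of all windows. A match describes the letters and is not a binding site.

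The windows of Dnmt3l held few CpG pairs, 6, 4 and 3 from the first start to the last. That of Tdrd9 held 10, that of Tex19.1 16, that of Sohlh2 17 and that of Tex101 19. The median over all windows was 7, with quartiles of 3 and 20. All 7 windows therefore lay between those quartiles, ends included. The sequence of a window says nothing on its methylation in these embryos, which was not measured here.

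**Figure D2:**
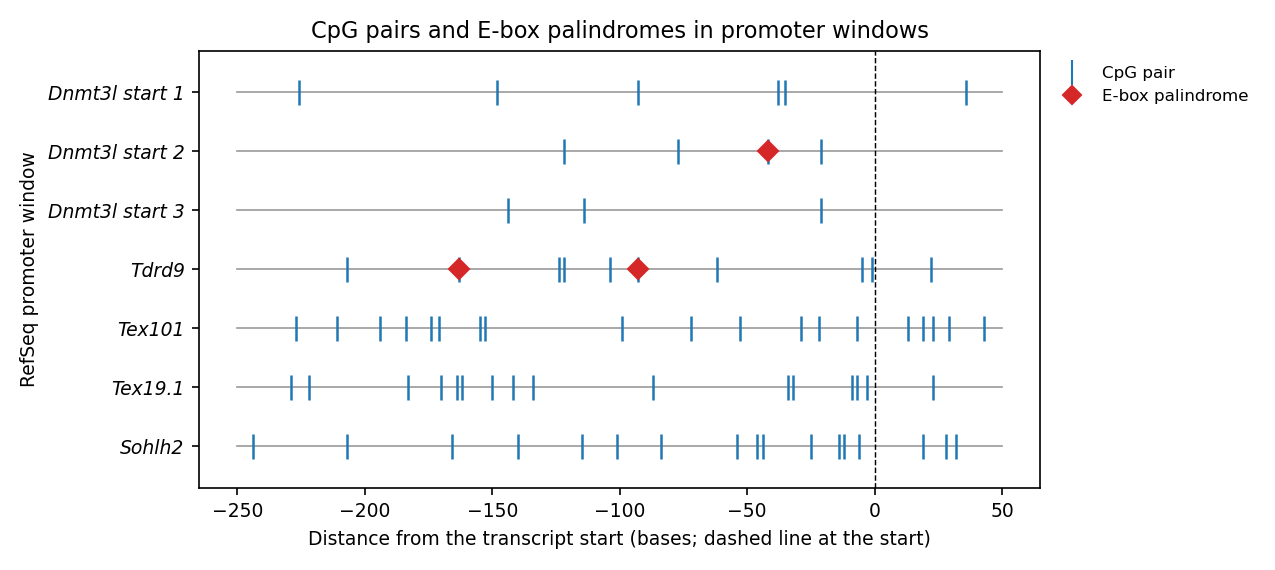
Position of CpG pairs (blue ticks) and of the E-box palindrome (red diamonds) along 7 RefSeq promoter windows of 5 genes, in bases from the transcript start. The Dnmt3l windows hold 3 to 6 CpG pairs and 1 E-box, the Tdrd9 window holds 10 CpG pairs and 2 E-boxes, and the windows of Tex101, Tex19.1 and Sohlh2 hold 16 to 19 CpG pairs and no E-box.

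Dnmt3l encodes a protein without catalytic activity that binds the de novo methyltransferases and is needed for methylation of transposons in prospermatogonia. It had 1.24 FPKM in Control, 0.619 FPKM in ACE+ACE and 4.41 FPKM in IBU+ACE. IBU+ACE was 3.55 times higher than Control and 7.13 times higher than ACE+ACE. The log2 fold changes in the authors' deposited tables were 1.83 and 2.83. By size they ranked 54 of the 127 transcripts higher in IBU+ACE than in Control, and 30 of the 180 higher than in ACE+ACE, counting rows above 0 in both libraries. Control and ACE+ACE also stood apart, with ACE+ACE at 0.498 times the Control value, and the gene was not listed between them. Dnmt3l had the lowest FPKM levels of the 7 genes and the highest ratio between libraries, though its differences in FPKM were smaller than those of Tex15, Morc1 and Tex19.1. Against Control its difference of 3.17 FPKM was the smallest in size of the 5 genes listed. Against ACE+ACE its 3.79 FPKM was below the differences of Morc1 and Tex101 and above those of Tdrd9 and Sohlh2 in size.

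The deposited Dnmt3l locus (chr10:78030022-78063622, GRCm38) begins at the 3′ end of Aire, which lies on the opposite strand, and so holds all of Aire. Dnmt3l itself runs from 78041947 to 78063622 in GENCODE M21. Aire, known for its role in thymic self-tolerance, spans 78030022 to 78043610 and overlaps the 5′ part of Dnmt3l. The annotation gives Dnmt3l 8 transcripts with several starts, and which of them the deposited value measures is not stated. The libraries were stranded, but no source used here says whether the counting used strand, so the value may include Aire reads.

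Tdrd9 encodes a Tudor-domain helicase that works with a nuclear PIWI protein, and its loss leaves LINE-1 transposons active in male germ cells. It had 2.37 FPKM in Control, 2.64 FPKM in ACE+ACE and 5.94 FPKM in IBU+ACE. IBU+ACE was 2.51 times higher than Control and 2.25 times higher than ACE+ACE, and the authors' deposited tables give log2 fold changes of 1.33 and 1.17. Control and ACE+ACE were close, with ACE+ACE 1.11 times the Control value. The locus (chr12:111971484-112068854) also holds Rd3l on the opposite strand (111979111 to 111981317), and the longest coding transcript of Tdrd9 has 36 exons and 4809 nt. Tdrd9 and Dnmt3l were the genes of the 7 whose log2 fold changes reached 1 and also the ones whose locus holds another annotated gene.

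Tex15 encodes a large nuclear protein needed for piRNA-directed methylation of transposons and, later, for meiotic recombination. It went from 11.9 FPKM in the Control library to 19.9 FPKM in IBU+ACE, 1.67 times higher. The authors' deposited table gives a log2 fold change of 0.74. No value could be read for ACE+ACE or ASP+ACE. The deposited locus (chr8:33516611-33594235) runs past the GENCODE end of the gene at 33585582 and holds no other annotated gene.

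Morc1 encodes a nuclear ATPase that represses transposons in fetal male germ cells alongside the piRNA pathway. It had 8.84 FPKM in Control, 8.24 FPKM in ACE+ACE and 14.2 FPKM in IBU+ACE. IBU+ACE was 1.61 and 1.73 times higher, and the deposited log2 fold changes were 0.69 and 0.79. The Control and ACE+ACE levels differed by a log2 of -0.10 computed from the 2 values, far less than either stood from IBU+ACE. Its rank by size was 121 of 127 against Control and 172 of 180 against ACE+ACE, near the lower end of what the tables list. The locus (chr16:48431237-48630905) holds no other annotated gene.

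Tex101 encodes a glycoprotein anchored on the surface of germ cells, found on prospermatogonia and later germ cells and needed for sperm fertility. It had 4.83 FPKM in ACE+ACE and 8.67 FPKM in IBU+ACE, 1.79 times higher. The log2 fold change was 0.84, as the authors' deposited table gives it. It was not listed against Control, whose value could not be read. The locus (chr7:24668007-24676675, minus strand) equals the GENCODE gene.

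Tex19.1 encodes a mammal-specific protein of germ cells, placenta and pluripotent cells that restrains retrotransposons. It had 44.6 FPKM in ASP+ACE and 30.4 FPKM in IBU+ACE. The ASP+ACE value was 1.47 times the IBU+ACE value, and the authors' deposited table gives a log2 fold change of -0.55. That is the smallest absolute log2 fold change of the ASP+ACE to IBU+ACE table. Its IBU+ACE level was still the highest of the 7 genes on the FPKM scale, which is per transcript length. The locus (chr11:121146143-121148319) equals the GENCODE gene.

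Sohlh2 encodes a basic helix-loop-helix transcription factor that drives the differentiation of spermatogonia and of early oocytes. It had 8.30 FPKM in Control, 8.37 FPKM in ACE+ACE and 4.71 FPKM in IBU+ACE. Control was 1.76 times and ACE+ACE 1.78 times the IBU+ACE value, with deposited log2 fold changes of -0.82 and -0.83. Control and ACE+ACE agreed to a log2 of 0.01 computed from the 2 values, the closest pair among the 4 genes readable in both. The locus (chr3:55182028-55209957) equals the GENCODE gene, which has 1 transcript of 11 exons. After the median-ratio scaling its log2 values were -2.23 against Control and -2.51 against ACE+ACE. That scaling lowers IBU+ACE against both, so it could not turn the direction.

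In IBU+ACE the levels ran, from high to low, Tex19.1, Tex15, Morc1, Tex101, Tdrd9, Sohlh2 and Dnmt3l. In Control they ran Tex15, Morc1, Sohlh2, Tdrd9 and Dnmt3l. Sohlh2 stood above Tdrd9 in Control and ACE+ACE and below it in IBU+ACE. Neighbours in these orders cannot be told apart by error, since no spread exists. In whole-tissue RNA, germ cell number, RNA per germ cell, the share of other cells and the scaling cannot be told apart either.

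**Figure D3:**
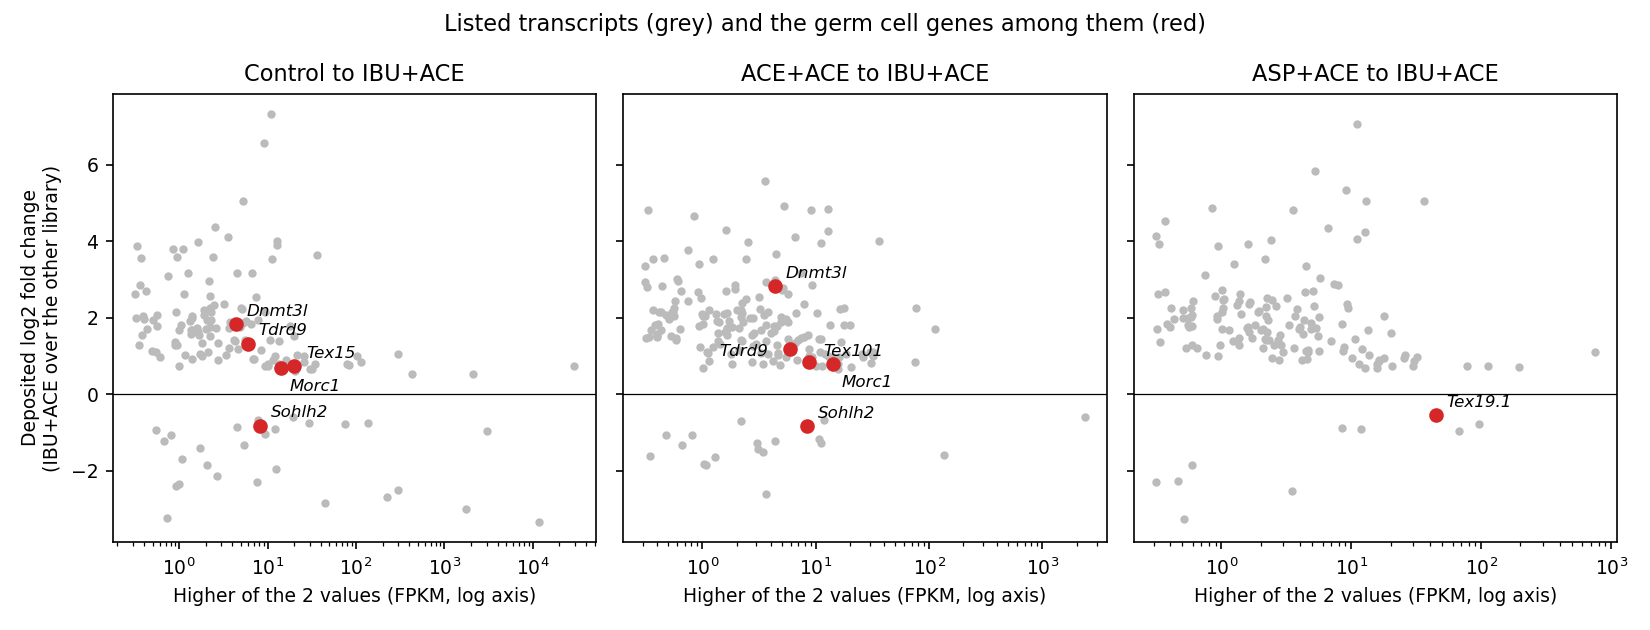
Deposited log2 fold change (IBU+ACE over the other library) against the higher of the 2 values (FPKM, log axis) for the transcripts listed in each of the 3 tables with IBU+ACE and above 0 in both libraries, 155, 200 and 156 in all. The 7 genes are in red, and all but Dnmt3l sit nearer to 0 than the median of the transcripts listed in the same direction. Dnmt3l, at 1.83 and 2.83, is above the medians of 1.71 and 1.82.

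The median log2 fold change of the 5 genes listed against Control was 0.74, and over all listed transcripts above 0 in both libraries it was 1.40. Against ACE+ACE the medians were 0.84 and 1.70. The smallest absolute log2 fold change that these tables list was 0.52 against Control and 0.59 against ACE+ACE. Morc1, at 0.69 and 0.79, lay a little above those limits.

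The rest of the programme was followed with gene lists of the piRNA and transposon-silencing machinery, DNA methylation, male germ cell fate, spermatogonial factors, germ cell identity and meiosis. Together these lists hold 111 genes outside the pluripotency list, and 1 of them, Tex13, appears in any table. None of the 31 piRNA and transposon-silencing genes was listed, which include Piwil2, Piwil4, Mael, Mov10l1 and Tdrd1. The same held for the 15 DNA methylation genes, among them Dnmt3a and Dnmt3b, which Dnmt3l works with. The 14 spermatogonial factors, among them the Sohlh2 partner Sohlh1, and the 24 meiosis genes, among them Stra8, were likewise not listed. The level of these genes cannot be read from the tables, and their absence is no sign of equal levels.

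Tex13, an X-linked gene of male germ cells, was the 1 listed member of the 24 male germ cell fate genes. It went from 4.54 FPKM in the Control library to 2.52 FPKM in IBU+ACE, and the authors' deposited table gives a log2 fold change of -0.85. Sohlh2 moved the same way. None of the 18 germ cell identity genes, such as Ddx4 and Dazl, appears in a table. The germ cell content of the libraries could therefore not be compared, nor the tissue label checked against these markers.

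Of the 24 pluripotency and Nodal genes, 7 appear in a table and 17 had no call. Among the 24, 2 were lower in IBU+ACE than in Control (Lefty1 and Sox2), 5 lower than in ACE+ACE (Lefty1, Lefty2, Foxh1, L1td1 and Tdh) and 2 lower than in ASP+ACE (Lefty1 and Dppa5a), and 0 were higher. The same tables list 8.90%, 6.54% and 3.66% of the 382 transcripts as lower. Each of the 382 is in a table, while 17 of the 24 genes are in none. On the base of the shares the counts are therefore 2, 5 and 2 of 7 genes. Those 7 are kept only because a table lists them, and the list was written with earlier results of these data known. The counts are thus a description and carry no test. The medians of the listed ones were -0.98, -1.28 and -0.84. Tdh, the threonine dehydrogenase of pluripotent cells, went from 10.6 to 4.69 FPKM between ACE+ACE and IBU+ACE, and Dppa5a, an RNA-binding protein of such cells, from 95.5 to 55.4 FPKM between ASP+ACE and IBU+ACE. Lefty1 was listed in all 3 tables with IBU+ACE, which none of the 7 germ cell genes was.

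Markers of other tissues moved in the same library. Of 20 limb, skin and cartilage markers, 16 were higher and 0 lower in IBU+ACE than in Control, and 13 and 15 were higher than in ACE+ACE and ASP+ACE. The same tables list 39.5%, 54.2% and 41.9% of the 382 transcripts as higher. The marker lists were written with earlier results of these data known, so their counts are a description and carry no test. The summed level of the 12 with a value in every library was 11.9 FPKM in Control, 9.10 FPKM in ACE+ACE, 7.52 FPKM in ASP+ACE and 109 FPKM in IBU+ACE. Col2a1, the main collagen of cartilage, had 2.92, 2.25, 1.10 and 36.3 FPKM in that order. Of these 12, 0 were at 0 in any library. Xist, made by cells with an inactive X chromosome, had 0.954, 0.710, 0.668 and 11.1 FPKM, and its deposited locus also holds the antisense gene Tsix. With Bmp2 and Irx5 it made up the 3 listed of 8 genes in the female gonad list, all higher in IBU+ACE in each of the 3 tables. Irx5 is also counted among the limb, skin and cartilage markers. The other 5 genes of the list, among them Foxl2, Wnt4, Rspo1 and Fst, had no row in any table. The part of these tissues in the levels of the 7 genes was not tested.

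Of the 15 Sertoli cell markers, Sox9 and Cst9 were higher in IBU+ACE than in Control. Sox9, also a cartilage gene, had 5.98, 5.97, 5.22 and 10.04 FPKM from Control to IBU+ACE, and Cst9 went from 63.3 FPKM in the Control library to 114 FPKM in IBU+ACE. Lum was the 1 listed of 10 interstitial cell markers, higher in IBU+ACE than in Control and ACE+ACE. The 8 Leydig cell, 6 endothelial and 6 mesonephros markers had no row in any table. Liver markers split the libraries in another way. Their summed level over 7 genes was 217 FPKM in Control, 60.6 FPKM in ACE+ACE, 137 FPKM in ASP+ACE and 230 FPKM in IBU+ACE. Of 14 liver markers, 9 were higher in IBU+ACE than in ACE+ACE, 3 than in ASP+ACE and 0 than in Control. Red cell markers went both ways, with 3 of 10 lower in IBU+ACE than in Control, and 3 higher and 1 lower than in ACE+ACE. Against ASP+ACE 0 were listed. Beside all these marker counts, the tables against Control, ACE+ACE and ASP+ACE list 39.5%, 54.2% and 41.9% of the 382 transcripts as higher. As lower they list 8.90%, 6.54% and 3.66%. Nothing is read from the counts. Of the 4 germ cell genes readable in both Control and ACE+ACE, Dnmt3l was lower in ACE+ACE, as the liver sum was, and Tdrd9, Morc1 and Sohlh2 were close. The part of liver and red cell RNA in their levels was not tested.

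**Figure D4:**
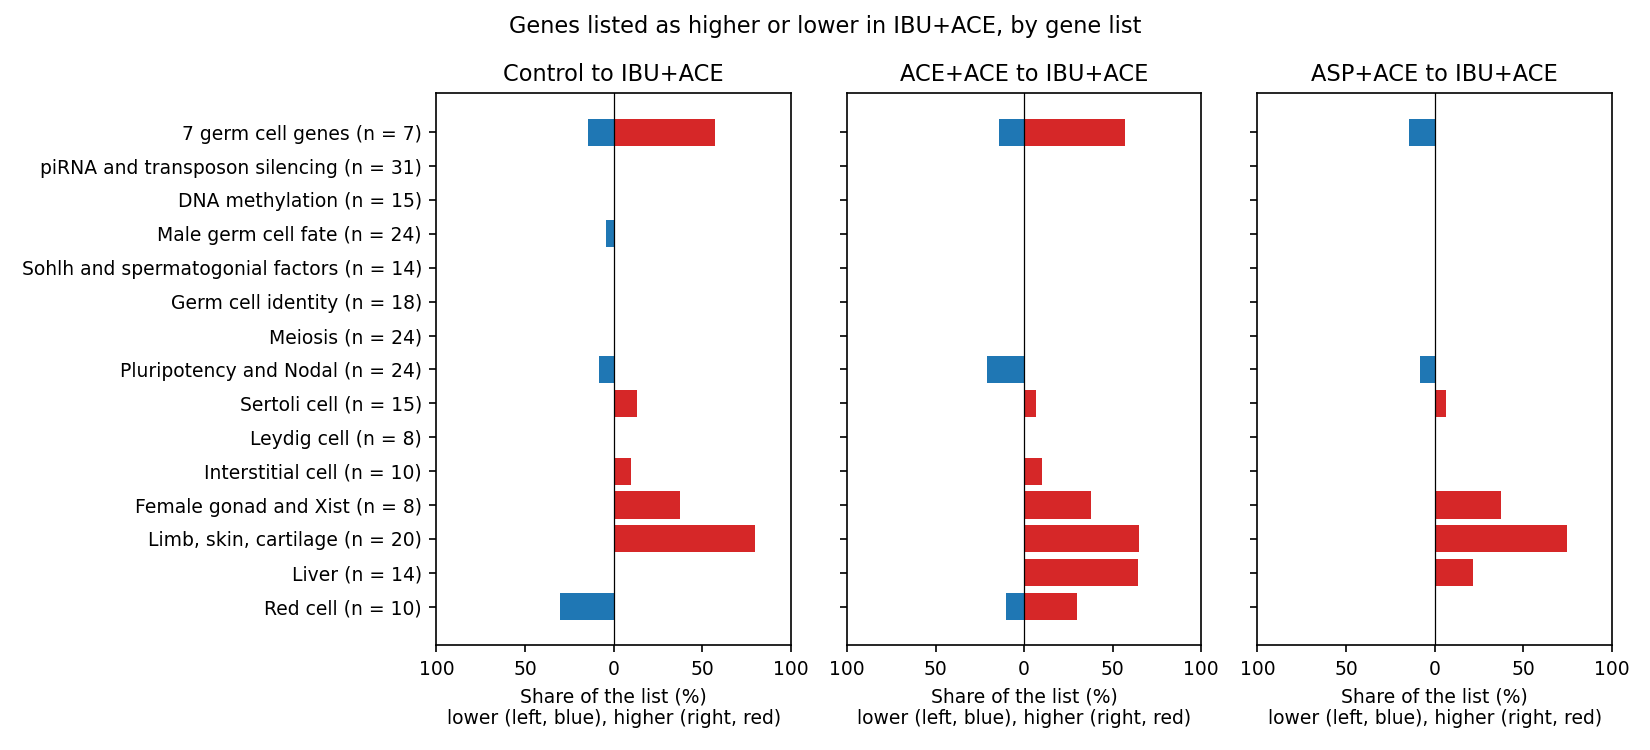
Share of each gene list (%) listed as higher (red, right) or lower (blue, left) in IBU+ACE than in Control, ACE+ACE and ASP+ACE, with the list size in brackets. Of the 7 germ cell genes, 4 are higher and 1 lower in each of the first pair of panels, and 1 is lower in the third. Over the 382 transcripts in any table, 39.5%, 54.2% and 41.9% are higher and 8.90%, 6.54% and 3.66% lower, in panel order. The piRNA, DNA methylation, germ cell identity, spermatogonial and meiosis lists, which leave out the 7 genes, have no bar. The 7 were chosen because the tables list them, so the contrast of their bars with those lists comes from that choice.

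No gene could be matched to the 7 by its pattern over 4 libraries, since none of them has 4 values. Over Control, ACE+ACE and IBU+ACE, a choice made after this was seen, 4 of the genes were among 116 named transcripts above 0 in each. They were set against those of the 116 outside the 7 genes, by the Euclidean distance of log2 FPKM centred on each gene's mean. The nearest were Prr16 (0.0733) and Gm38042 (0.113) to Tdrd9, Sox11 (0.0430) to Morc1, and Gm17087 (0.196) and Hbb-y (0.265) to Sohlh2. With 1 FPKM added before the log2, 2 of the 8 neighbours of the 4 genes remained, both of Sohlh2.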

How the data were processed

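Libraries were stranded, depleted of ribosomal RNA and sequenced as paired 75 nt reads, per the labels' protocols. Tools named without settings in the submitters' processing notes are TopHat2 2.1, Bowtie2 2.2.6, Cufflinks 2.2.1, SAMtools 1.3, FastQC and bcl2fastq 2.17, with genome GRCm38. The authors deposited 6 tables of 726 rows in all, each row 1 transcript in 2 libraries. The deposited values are taken as FPKM from the layout of a Cufflinks table, since the headers name no unit. The deposited log2 fold changes, second library over first, equalled those recomputed within 1.09e-05. Every row was marked significant in the authors' deposited tables, with the same p-value of 5e-05 and q-value of 0.0310, so neither ranks the genes. Values read from more than 1 table disagreed 0 times.

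Decimal commas were turned into points and tables read with pandas 2.3.3 and numpy 2.4.6 in Python 3.11.15, and figures were drawn with matplotlib 3.10.9. Reading, counting and motif search were tested on simulated data. EtOH was matched to Control as the name left over. Starts were raised by 1 to count from 1. With 1 library per group no test was run. Percentages of transcripts listed are of the 382 in any table, as the number tested is unknown. The 7 genes and all gene lists were chosen with earlier results of these data known. Named are the 7 genes, each listed gene of a pathway list, up to 3 marker examples a list by highest FPKM, and for each of the 7 the 2 nearest genes, some of which are not reported here. The alternatives tried were a q no higher than 0.01, a log2 fold change of 1 or more in size, a level of at least 1 or 5 FPKM, 1 or 0.1 FPKM added, and a scaling. Added later were tables without IBU+ACE, loci with no other gene, and 3 libraries for the nearest genes.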

Additional observations from a re-analysis of the deposited data

How the results depend on the processing

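No paired analysis was possible because each group has 1 library and no test was run. For the counts of the 7 genes listed against Control (5), ACE+ACE (5) and ASP+ACE (1), a q of 0.01 or less left 0, 0 and 0, because every row has the same q. A log2 fold change of 1 or more in size left 2, 2 and 0, Dnmt3l and Tdrd9 in the first pair of tables. Loci that hold no other annotated gene left 3, 3 and 1. Without the 3 tables of IBU+ACE, 0 of the 7 genes were listed. A minimum of 1 or 5 FPKM kept each count within 1.5 times. With 1 or 0.1 FPKM added, all 11 log2 fold changes kept their direction and came closer to 0, by at most 1.09. Scaling by the median ratio of 92 named transcripts turned 6 of the 11: Morc1 to -0.73 against Control and -0.89 against ACE+ACE, Tdrd9 to -0.085 and -0.50, Tex101 to -0.83 against ACE+ACE and Tex15 to -0.67 against Control. By construction that scaling uses transcripts the tables list, most of them higher in IBU+ACE, and it was not fitted to transcripts without a call. It lowers IBU+ACE against every other library, so rows listed as lower could not turn. Rows listed as higher turned wherever their log2 fold change was below the shift, so the turns follow from the divisor. Depth is unknown, so no interval or detection limit can be given.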

Other observations

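A pair of further X-linked genes, chosen after their values were seen, was listed as higher in IBU+ACE on the values as deposited. Nxf2, an RNA export factor of male germ cells (chrX:134944526-134964754), had 1.82 FPKM in Control, 2.58 FPKM in ACE+ACE and 6.54 FPKM in IBU+ACE, and the authors' deposited tables give log2 fold changes of 1.84 and 1.34. Zcchc5, named Rtl3 in GENCODE M21, a gene derived from a retrotransposon (chrX:106837082-106840644), had 0.822, 0.454, 0.621 and 1.71 FPKM from Control to IBU+ACE. It was listed as higher in IBU+ACE in all 3 tables, and the authors' deposited tables give 1.05, 1.91 and 1.46 on the log2 scale. Between Control and ACE+ACE, where neither was listed, Nxf2 had the higher value in ACE+ACE and Zcchc5 the lower. After the median-ratio scaling Nxf2 had log2 values of 0.43 against Control and -0.33 against ACE+ACE, and Zcchc5 had -0.36 against Control, 0.24 against ACE+ACE and -0.15 against ASP+ACE, so neither kept its direction throughout. Tex13, also X-linked, was lower in IBU+ACE than in Control as deposited. The scaling, which lowers IBU+ACE against Control, could not turn that direction. Xist was higher in the same library on both scales, and is itself among the transcripts that set the scaling. The part of cells with an inactive X chromosome in these values was not tested.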
